A study of Mus musculus with 12 samples.

Results

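Hnrnp and SR genes encode the most abundant families of proteins that bind newly made RNA and steer its splicing. The 29 genes described here are the rows of the deposited expression table whose symbol starts with Hnrnp, apart from Hnrnpa1, or with Srsf or Sfrs, out of 24132 rows in all. They form 2 families, with 17 Hnrnp genes and 12 SR genes. The study sequenced polyadenylated RNA of neonatal mouse fibroblasts, the collagen-making cells of connective tissue, cultured from the tip of the tail. The mice had been backcrossed to C57BL6 to more than 97% similarity. The cells were Hotair knockout, Hotair heterozygous or Hotair wild type, with 2 RNA libraries per genotype (6 in all) and no treatment named. Hotair is a long noncoding RNA of the HoxC cluster. The labels do not name the disrupted sequence, the number of animals behind a library or the sex of the mice. The 6 ChIP-seq libraries of the series are not analysed here.

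Heterogeneous nuclear ribonucleoproteins (hnRNPs) coat nascent transcripts, and many of them keep exons or splice sites from being used. Serine/arginine-rich (SR) proteins bind exonic enhancers and mostly recruit the splicing machinery, and several of them also accompany mRNA to the cytoplasm. Members of both families regulate their own mRNAs and each other's, often by including exons that send the transcript to nonsense-mediated decay. A value per gene, as deposited, adds up all spliced forms of the gene and cannot separate those that are decayed from those that are translated.

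The promoters of 5 members are shown first, because these genes carry the ends of the range between knockout and wild type: Hnrnph1 and Hnrnpa3 with the largest rises and Hnrnpc with the only fall among Hnrnp genes, and Srsf10 with the largest rise that has a window and Srsf9 with the only fall among SR genes. Each window runs from 250 bases before to 50 bases after the most upstream start listed by RefSeq for GRCm38.p6, so the start is base 251 of 300. A window was matched for 27 of the 29 members. Capitals mark matches, on either strand, to any of 7 short motifs. Factors of the ETS family bind motifs with the letters CCGGAAG, and the factor NRF1 those with GCGCATGCG. The factor Sp1 binds GC boxes, searched as GGGCGG. Myc and related factors bind the E-box, searched as CACGTG. The TATA box was searched as TATAAA. The site of the factor YY1 was searched as AAGATGGCG. The CCAAT box, bound by NF-Y, was searched by its name's letters. Matches can overlap, as a pair of GGGCGG matches in Hnrnpa3 does.
Hnrnph1, chr11:50376740-50377039, plus strand: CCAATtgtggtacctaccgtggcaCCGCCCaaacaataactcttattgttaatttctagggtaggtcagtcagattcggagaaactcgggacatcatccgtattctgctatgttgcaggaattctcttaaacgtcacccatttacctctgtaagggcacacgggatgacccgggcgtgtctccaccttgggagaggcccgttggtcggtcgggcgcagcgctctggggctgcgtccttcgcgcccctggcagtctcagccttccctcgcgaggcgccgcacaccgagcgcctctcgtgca
Hnrnpa3, chr2:75659009-75659308, plus strand: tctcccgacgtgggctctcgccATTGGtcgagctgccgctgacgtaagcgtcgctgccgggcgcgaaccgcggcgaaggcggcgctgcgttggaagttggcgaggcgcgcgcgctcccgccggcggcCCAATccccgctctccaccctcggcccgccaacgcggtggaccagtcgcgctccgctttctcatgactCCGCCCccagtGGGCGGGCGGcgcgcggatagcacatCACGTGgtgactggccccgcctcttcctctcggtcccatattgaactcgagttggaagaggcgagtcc
Hnrnpc, chr14:52103972-52104271, minus strand: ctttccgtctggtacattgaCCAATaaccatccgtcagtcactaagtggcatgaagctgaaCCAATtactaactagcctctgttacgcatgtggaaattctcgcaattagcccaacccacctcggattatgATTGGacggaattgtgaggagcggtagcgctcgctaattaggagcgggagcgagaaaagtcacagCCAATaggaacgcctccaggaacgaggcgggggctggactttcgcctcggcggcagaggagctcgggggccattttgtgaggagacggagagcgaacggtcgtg
Srsf10, chr4:135855821-135856120, plus strand: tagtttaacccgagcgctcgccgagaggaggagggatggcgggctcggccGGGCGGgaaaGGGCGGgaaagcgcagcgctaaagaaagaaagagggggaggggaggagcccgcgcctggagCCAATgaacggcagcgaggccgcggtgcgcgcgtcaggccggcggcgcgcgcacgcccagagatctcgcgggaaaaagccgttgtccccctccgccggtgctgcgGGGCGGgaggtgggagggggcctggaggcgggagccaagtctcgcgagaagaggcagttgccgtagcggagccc
Srsf9, chr5:115326927-115327226, plus strand: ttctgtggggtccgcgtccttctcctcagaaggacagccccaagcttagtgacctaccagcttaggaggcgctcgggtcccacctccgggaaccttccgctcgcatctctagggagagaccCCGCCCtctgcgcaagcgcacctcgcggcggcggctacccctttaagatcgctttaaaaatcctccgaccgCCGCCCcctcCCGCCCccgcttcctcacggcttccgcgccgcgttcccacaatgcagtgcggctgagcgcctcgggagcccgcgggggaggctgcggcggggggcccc
The Hnrnpc window held 4 CCAAT matches and no GGGCGG match, while the Hnrnpa3 window held 2 CCAAT matches, 3 GGGCGG matches and the E-box letters. The Srsf9 window held 3 GGGCGG matches and no CCAAT match. The CCAAT box was found in 11 of 16 Hnrnp windows and in 4 of 11 SR windows, or 55.6% of the members together, against 38.7% of the 7941 tested genes that have a window. GGGCGG was found in 77.8% of the members and in 67.8% of the tested genes, and CCGGAAG in 22.2% and 19.4%. GCGCATGCG was in 3.70% of the members and 4.05% of the tested genes, CACGTG in 14.8% and 10.8%, and TATAAA in 14.8% and 6.55%. AAGATGGCG was in none of the 27 members' windows, against 3.51% of the tested genes. The median GC content was 68.3% in the members' windows and 61.7% in those of the tested genes. These are matches of letters, and no binding was measured.

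The RNA libraries held 48.1M and 46.0M read equivalents in knockout cells, 33.2M and 31.2M in heterozygous cells and 29.6M and 27.9M in wild-type cells, so the knockout libraries were 1.64 times as deep as the wild-type ones. Levels are in RPKM (reads per kilobase of gene model, scaled to the total reads of the library), which allows levels of different genes to be compared per length. Hotair was listed at 0 in both knockout libraries, against 0.213 and 0.172 RPKM in heterozygous and 0.247 and 0.183 RPKM in wild-type libraries. All 11 fibroblast markers were detected in every library, with sums between 5511 and 5919 RPKM. Single markers differed in both directions, with 4 called higher and 6 lower in knockout than in wild type. Of all genes tested, 40.6% were called higher and 26.6% lower. Lum averaged 13.6 RPKM in knockout and 2.31 RPKM in wild type, and Thy1 94.8 and 190 RPKM. Macrophage and leukocyte markers, 14 genes of which Cd3e was at 0 throughout, summed to 55.3 and 55.7 RPKM in knockout, 8.53 and 7.66 RPKM in heterozygous and 10.4 and 9.18 RPKM in wild-type libraries. The 9 osteoclast markers summed to 55.9 and 55.6 RPKM in knockout, 17.6 and 20.3 RPKM in heterozygous and 24.2 and 24.6 RPKM in wild-type libraries. Of the 5 tested, 4 were called higher in knockout than in wild type. Acp5 and Atp6v0d2 reached 1 RPKM, required in 2 libraries for a test, only in knockout, so their direction was set by the filter. Ctsk, the highest of the list, was called lower, with means of 11.0 RPKM in knockout and 19.3 RPKM in wild type. The 10 Schwann cell markers summed to between 19.0 and 20.1 RPKM in knockout, 38.8 and 40.2 RPKM in heterozygous and 30.3 and 30.4 RPKM in wild-type libraries. Endothelial and keratinocyte markers summed to at most 2.64 RPKM in any library, and the 10 skeletal muscle markers to 162 and 162 RPKM in knockout, 163 and 159 RPKM in heterozygous and 245 and 246 RPKM in wild-type libraries. Nearly all of that sum was Acta1, which was called lower in knockout than in wild type, while Des was called higher and Myod1 was at 0 throughout. In bulk libraries like these, fewer cells of a type and less RNA per cell cannot be told apart. The libraries also differed in sex-linked RNA. Xist, the RNA of the inactive X chromosome, stood at 0.0209 and 0.00606 RPKM in knockout, 4.65 and 4.46 RPKM in heterozygous and 0.0414 and 0.0479 RPKM in wild-type libraries. The sum of 4 Y-linked genes was 10.9 and 11.4 RPKM in knockout, 0.240 and 0.300 RPKM in heterozygous and 5.12 and 5.27 RPKM in wild-type libraries. Genotype and sex of the cells therefore cannot be told apart in comparisons with the heterozygous libraries. Knockout and wild-type libraries also differed from each other in the Y-linked sum, which was higher in knockout. The part of these cell types and of sex in the results below was not tested.

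The Hnrnp family was the more abundant one in every library. Its summed level was 652 and 659 RPKM in knockout, 593 and 596 RPKM in heterozygous and 545 and 539 RPKM in wild-type libraries. The groups did not overlap, and the mean was 655 ± 5.11 RPKM in knockout against 542 ± 4.15 RPKM in wild type (SD, n = 2 each), a ratio of 1.21. For the SR family the sum was 218 and 218 RPKM in knockout, 215 and 214 RPKM in heterozygous and 195 and 194 RPKM in wild-type libraries. Knockout and heterozygous cells thus lay close together and both above wild type, by factors of 1.12 and 1.10 of the means. The SR sum divided by the Hnrnp sum was 0.335 and 0.331 in knockout libraries, 0.363 and 0.359 in heterozygous libraries and 0.358 and 0.360 in wild-type libraries. Both knockout values lay below the other 4, and the heterozygous and wild-type values overlapped.

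**Figure D1:**
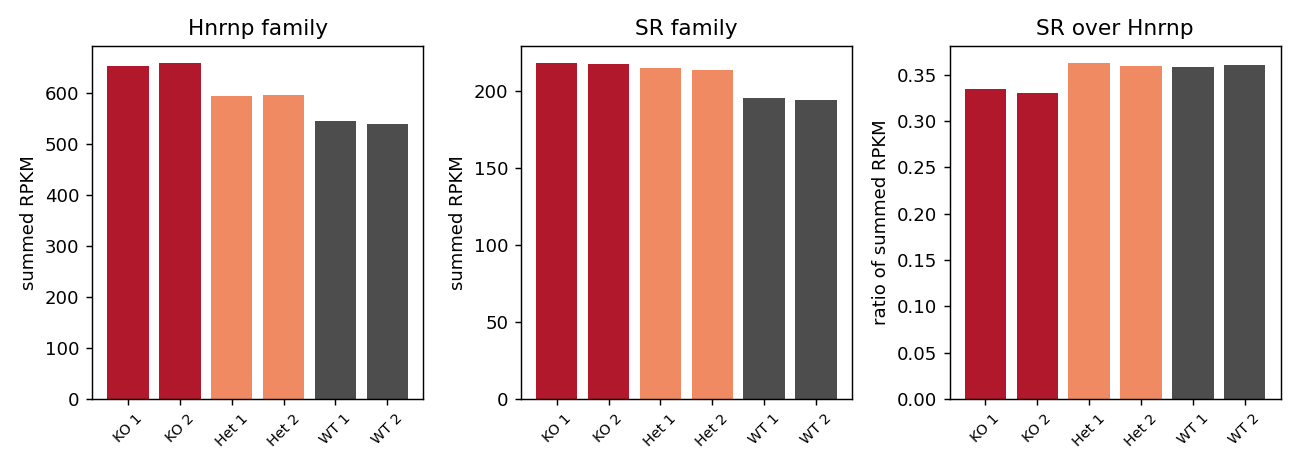
Summed RPKM of the 17 Hnrnp genes and of the 12 SR genes, and the ratio of the SR to the Hnrnp sum, with 1 bar per library (KO knockout, Het heterozygous, WT wild type). The Hnrnp sum is highest in the 2 knockout libraries (652 and 659 RPKM), and the ratio is lowest there (0.335 and 0.331).

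A few genes made up most of each sum. Hnrnpk, which binds C-rich RNA through KH domains, had the highest mean over the 6 libraries with 108 RPKM, or 18.1% of the family sum. It was followed by Hnrnpl, which binds CA repeats, at 82.1 RPKM, by Hnrnpab at 74.7 RPKM and by Hnrnpf at 64.1 RPKM. These 4 genes together held 55.1% of the Hnrnp sum. Among SR genes Srsf2 (SC35), a classical marker of nuclear speckles, led with 58.6 RPKM or 28.0% of the sum. Srsf5 and Srsf9 had nearly equal means of 27.3 and 27.2 RPKM, Srsf6 had 24.8 RPKM, and these 4 genes held 65.9% of the SR sum. The lowest Hnrnp genes were Hnrnpd at 4.59 RPKM, Hnrnpr at 3.04 RPKM and Hnrnph3 at 1.48 RPKM, and the lowest SR genes Srsf10 at 4.37 RPKM, Sfrs18 at 1.96 RPKM and Srsf12 at 0.0709 RPKM. All members except Srsf12 reached the 1 RPKM in 2 libraries that was required for a test, and in a library they rested on between 63.4 and 11199 read equivalents.

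Between Hotair knockout and wild-type fibroblasts, most genes of both families were higher in knockout, each of the 28 tested by less than 2-fold. Of 17 Hnrnp genes, 15 rose, 1 (Hnrnpc) fell and 1 (Hnrnpl) did not pass the test. Of 11 SR genes tested, 7 rose, 1 (Srsf9) fell and 3 (Srsf4, Srsf6 and Srsf7) did not pass. A call means an adjusted p under 0.05 in limma with Benjamini-Hochberg adjustment over 10897 genes, on log2(RPKM + 1). On that scale, which understates the change of low genes, differences are given below with the standard error of the fit. By the same rule 40.6% of all genes tested were called higher and 26.6% lower, so a single call is common in these libraries. The share called higher was 88.2% of the Hnrnp genes and 63.6% of the SR genes tested. The median log2 difference was 0.36 over the Hnrnp genes and 0.16 over the SR genes, against 0.06 over all genes tested. The SR median was 0.08 after scaling to equal medians, where that of all genes was -0.02, and 0.24 after quantile normalization. No member tested differed by 2-fold or more without overlap of the libraries, which 2.56% of all genes tested did.

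**Figure D2:**
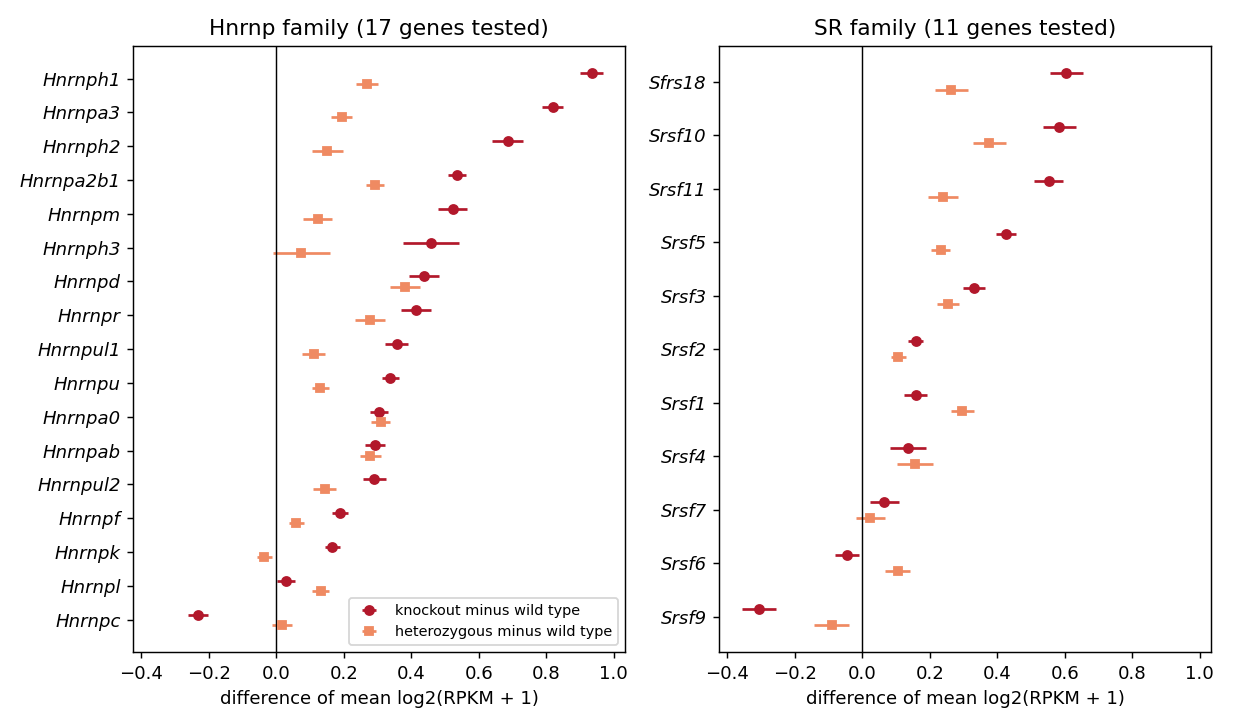
Difference of mean log2(RPKM + 1) from wild type for every member tested, knockout as circles and heterozygous as squares, with bars for the standard error of the fit (n = 2 libraries per genotype). Knockout differences of Hnrnp genes run from -0.23 (Hnrnpc) to 0.93 (Hnrnph1), and those of SR genes from -0.31 (Srsf9) to 0.60 (Sfrs18).

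The hnRNP H group, which binds runs of G and can act for or against an exon, held 2 of the 3 largest differences. Hnrnph1 stood at 25.5 and 24.9 RPKM in knockout, 15.8 and 15.2 RPKM in heterozygous and 12.7 and 12.7 RPKM in wild-type libraries. Each genotype was separate, with knockout far above the other genotypes. The ratio of means, knockout over wild type, was 1.98 and the log2 difference 0.93 ± 0.03 (SE; limma, Benjamini-Hochberg adjusted p = 7.6e-07). Hnrnph2, its close relative encoded on the X chromosome, stood at 17.4 and 17.9 RPKM in knockout, 12.4 and 11.3 RPKM in heterozygous and 10.5 and 10.7 RPKM in wild-type libraries. Here too the knockout libraries were highest and no groups overlapped, with a log2 difference of 0.69 ± 0.05 (limma, adjusted p = 1.33e-05). Hnrnph3, the lowest member of the group, had 1.93 and 2.03 RPKM in knockout, 1.29 and 1.27 RPKM in heterozygous and 0.983 and 1.37 RPKM in wild-type libraries. The wild-type pair was wide enough to enclose the heterozygous values, and the rise in knockout was 0.46 ± 0.08 (limma, adjusted p = 0.00208). Hnrnpf, the most abundant member of the group, averaged 69.0 ± 0.969 RPKM in knockout and 60.4 ± 0.660 RPKM in wild type (SD, n = 2 each) and rose by only 0.19 ± 0.02 (limma, adjusted p = 0.000224). The ratio of Hnrnph1 to Hnrnpf was accordingly 0.373 and 0.357 in knockout, 0.250 and 0.242 in heterozygous and 0.209 and 0.212 in wild-type libraries.

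The hnRNP A/B group binds exonic silencers and includes proteins that sort mRNAs for transport. Hnrnpa3 stood at 23.1 and 22.7 RPKM in knockout, 14.4 and 14.6 RPKM in heterozygous and 12.5 and 12.6 RPKM in wild-type libraries. The knockout libraries were well apart from the rest, with a ratio of means of 1.83 and a log2 difference of 0.82 ± 0.03 (limma, adjusted p = 1e-06). Hnrnpa2b1, which binds mRNAs carried along processes and miRNAs sorted into vesicles, stood at 36.3 and 36.4 RPKM in knockout, 30.2 and 31.0 RPKM in heterozygous and 24.7 and 24.8 RPKM in wild-type libraries. Its groups were evenly stepped and free of overlap, and the difference was 0.54 ± 0.03 (limma, adjusted p = 3.76e-06). The ratio of Hnrnpa3 to Hnrnpa2b1 was 0.635 and 0.622 in knockout, 0.476 and 0.469 in heterozygous and 0.504 and 0.507 in wild-type libraries. The balance of these relatives thus differed in knockout, while heterozygous lay slightly under wild type. Hnrnpa0, which binds AU-rich elements, had 34.6 and 35.3 RPKM in knockout, 34.6 and 35.6 RPKM in heterozygous and 28.1 and 28.1 RPKM in wild-type libraries. Knockout and heterozygous overlapped and both exceeded wild type, with a difference of 0.30 ± 0.03 in knockout (limma, adjusted p = 5.8e-05). Hnrnpab followed the same order, with 79.9 ± 1.04 RPKM in knockout, 79.1 ± 0.650 RPKM in heterozygous and 65.0 ± 2.62 RPKM in wild type (SD, n = 2 each). Hnrnpd (AUF1), a factor of AU-rich mRNA decay, had 5.16 and 5.26 RPKM in knockout, 5.01 and 4.94 RPKM in heterozygous and 3.48 and 3.69 RPKM in wild-type libraries, and its difference in knockout was 0.44 ± 0.04 (limma, adjusted p = 9.49e-05).

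**Figure D3:**
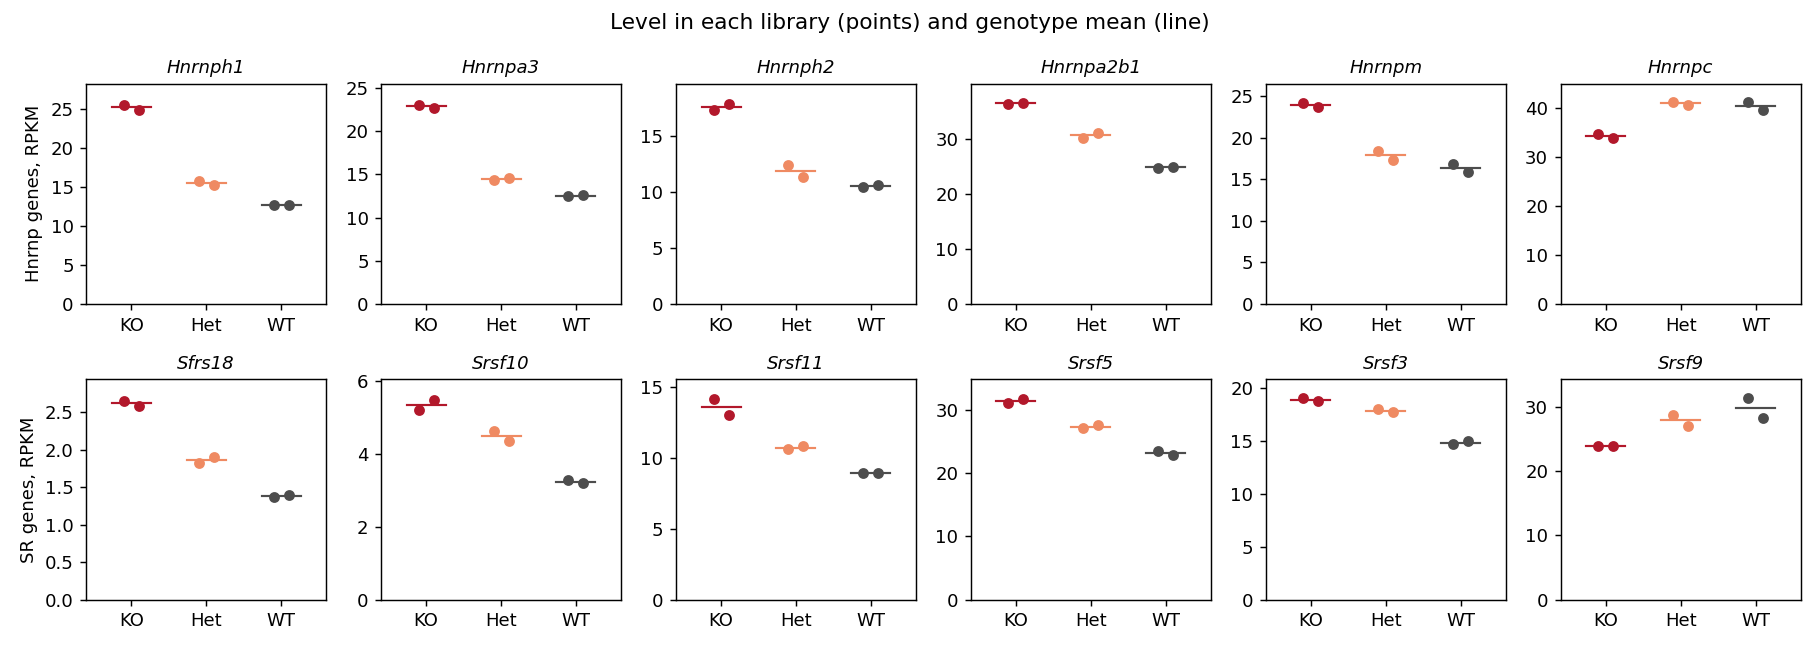
RPKM in each library (points) and genotype mean (lines) for the 5 members of each family with the largest rise in knockout and the 1 with the fall, each panel from 0 on its own axis. Knockout points lie above wild type in all panels except Hnrnpc (34.6 and 33.8 against 41.2 and 39.6 RPKM) and Srsf9 (23.9 and 24.0 against 31.4 and 28.3 RPKM).

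Outside these groups, Hnrnpm, which binds GU-rich RNA and regulates splicing in epithelial-mesenchymal transition, stood at 24.2 and 23.7 RPKM in knockout, 18.5 and 17.3 RPKM in heterozygous and 16.8 and 15.9 RPKM in wild-type libraries. The knockout pair was highest and the difference was 0.52 ± 0.04 (limma, adjusted p = 3.37e-05). Hnrnpu, which binds RNA and chromatin scaffolds, averaged 48.8 ± 0.257 RPKM in knockout, 42.1 ± 0.604 RPKM in heterozygous and 38.4 ± 0.0679 RPKM in wild type, and its relatives Hnrnpul1 and Hnrnpul2 rose by 0.36 and 0.29 in knockout. The ratio of Hnrnpul1 to Hnrnpul2 was 2.62 and 2.73 in knockout, 2.41 and 2.60 in heterozygous and 2.54 and 2.61 in wild-type libraries, so that the knockout pair was highest by a margin smaller than its own spread. Hnrnpr, a relative of Syncrip, rose by 0.41 ± 0.04 (limma, adjusted p = 0.000124). Hnrnpk, the most abundant member, had 117 and 119 RPKM in knockout, 101 and 104 RPKM in heterozygous and 106 and 103 RPKM in wild-type libraries. Only knockout stood apart, with a difference of 0.17 ± 0.02 (limma, adjusted p = 0.00045). Hnrnpl had 79.8 and 81.5 RPKM in knockout, 86.6 and 86.7 RPKM in heterozygous and 77.3 and 80.7 RPKM in wild-type libraries. The knockout and wild-type libraries overlapped (log2 difference 0.03 ± 0.03; limma, adjusted p = 0.352), and the heterozygous pair was highest. The difference was -0.05 after scaling to equal medians and 0.11, with a call, after quantile normalization.

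Hnrnpc, which binds U tracts and packages nascent RNA, went the other way. It had 34.6 and 33.8 RPKM in knockout, 41.2 and 40.6 RPKM in heterozygous and 41.2 and 39.6 RPKM in wild-type libraries. Both knockout libraries lay below the other 4, which overlapped, and the log2 difference from wild type was -0.23 ± 0.03 (limma, adjusted p = 0.000339). Hnrnpu and Hnrnpc, neighbours in level, changed places: their ratio was 1.40 and 1.45 in knockout, 1.01 and 1.05 in heterozygous and 0.931 and 0.971 in wild-type libraries.

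Among SR genes the largest differences belonged to low or middle-ranked genes. Sfrs18, listed by RefSeq as Pnisr and known as a partner of the speckle protein pinin, stood at 2.66 and 2.59 RPKM in knockout, 1.82 and 1.90 RPKM in heterozygous and 1.37 and 1.40 RPKM in wild-type libraries. Its groups were stepped without overlap, with a ratio of means of 1.90 and a log2 difference of 0.60 ± 0.05 (limma, adjusted p = 3.05e-05). Srsf10, which represses splicing in mitosis and heat shock once dephosphorylated, stood at 5.22 and 5.49 RPKM in knockout, 4.65 and 4.36 RPKM in heterozygous and 3.28 and 3.20 RPKM in wild-type libraries. Again each genotype was separate, with a difference of 0.58 ± 0.05 (limma, adjusted p = 3.5e-05). Srsf11 (p54), an SR-like protein, stood at 14.1 and 13.0 RPKM in knockout, 10.6 and 10.8 RPKM in heterozygous and 8.96 and 8.91 RPKM in wild-type libraries. Its knockout pair was the widest and still clear of the rest, with a difference of 0.55 ± 0.04 (limma, adjusted p = 3.05e-05).

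Srsf4, Srsf5 and Srsf6 form a close subgroup by sequence, and their differences were unequal. Srsf5 stood at 31.0 and 31.7 RPKM in knockout, 27.1 and 27.5 RPKM in heterozygous and 23.4 and 22.8 RPKM in wild-type libraries, and rose by 0.43 ± 0.03 (limma, adjusted p = 1.51e-05). Srsf6 had 23.2 and 24.1 RPKM in knockout, 26.9 and 25.7 RPKM in heterozygous and 24.0 and 24.8 RPKM in wild-type libraries. Its knockout and wild-type libraries overlapped, with a difference of -0.05 ± 0.04 (limma, adjusted p = 0.304). After scaling to equal medians Srsf6 was called lower, and after quantile normalization its difference was 0.01. The ratio of Srsf5 to Srsf6 was 1.34 and 1.32 in knockout, 1.01 and 1.07 in heterozygous and 0.974 and 0.921 in wild-type libraries, so their order by level was not the same in knockout and wild type. Srsf4 had 10.3 and 9.78 RPKM in knockout, 10.5 and 9.99 RPKM in heterozygous and 8.63 and 9.52 RPKM in wild-type libraries, and its difference of 0.13 ± 0.05 missed the threshold (limma, adjusted p = 0.0571). Without the second wild-type library it was 0.20 and passed.

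The small SR proteins Srsf3 and Srsf7 both serve as adapters for mRNA export. Srsf3 stood at 19.0 and 18.7 RPKM in knockout, 18.0 and 17.7 RPKM in heterozygous and 14.7 and 15.0 RPKM in wild-type libraries. Knockout and heterozygous lay close together above wild type, and the difference in knockout was 0.33 ± 0.03 (limma, adjusted p = 7.5e-05). Srsf7 passed no test in any of the 3 comparisons and ran from 11.0 to 12.0 RPKM over the 6 libraries. Srsf1 (SF2/ASF), the prototype of the family, had 15.4 and 15.7 RPKM in knockout, 17.0 and 17.5 RPKM in heterozygous and 14.0 and 13.7 RPKM in wild-type libraries. Heterozygous cells were highest, and the difference of knockout from wild type was 0.16 ± 0.03 (limma, adjusted p = 0.0048). That call was lost when every library was scaled to the same median (difference 0.08, adjusted p = 0.063 in limma). Srsf2 had 61.4 and 61.4 RPKM in knockout, 58.8 and 59.8 RPKM in heterozygous and 54.5 and 55.4 RPKM in wild-type libraries, and rose by 0.16 ± 0.02 in knockout.

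Srsf9, a short relative of Srsf1, was the SR gene that fell. It stood at 23.9 and 24.0 RPKM in knockout, 28.8 and 27.1 RPKM in heterozygous and 31.4 and 28.3 RPKM in wild-type libraries. Knockout lay below all other libraries and the difference from wild type was -0.31 ± 0.05 (limma, adjusted p = 0.00131). The ratio of Srsf11 to Srsf9 was 0.591 and 0.543 in knockout, 0.368 and 0.400 in heterozygous and 0.286 and 0.314 in wild-type libraries. Srsf12, a relative of Srsf10, rested on 29 read equivalents in the 2 knockout libraries, 15 in the heterozygous and 5 in the wild-type ones, and was not tested. After division by depth its ratio of knockout to wild type was 3.51, with an exact Clopper-Pearson 95% interval from 1.36 to 11.7 that covers counting error only.

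Level and difference were related in these libraries, over all genes as well as over members. Across the 10897 genes tested, Spearman's rho between the mean level and the log2 difference of knockout from wild type was -0.35, and across the 28 members it was -0.45. The corresponding values for the length of the gene model were 0.19 and 0.28. These describe genes measured in the same libraries and of unequal depth, and genes are not independent replicates. Among genes of at least 5 RPKM, where 25 members were left, 19 members were called higher and 2 lower, against 2291 higher and 2463 lower of 6788 genes.

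**Figure D4:**
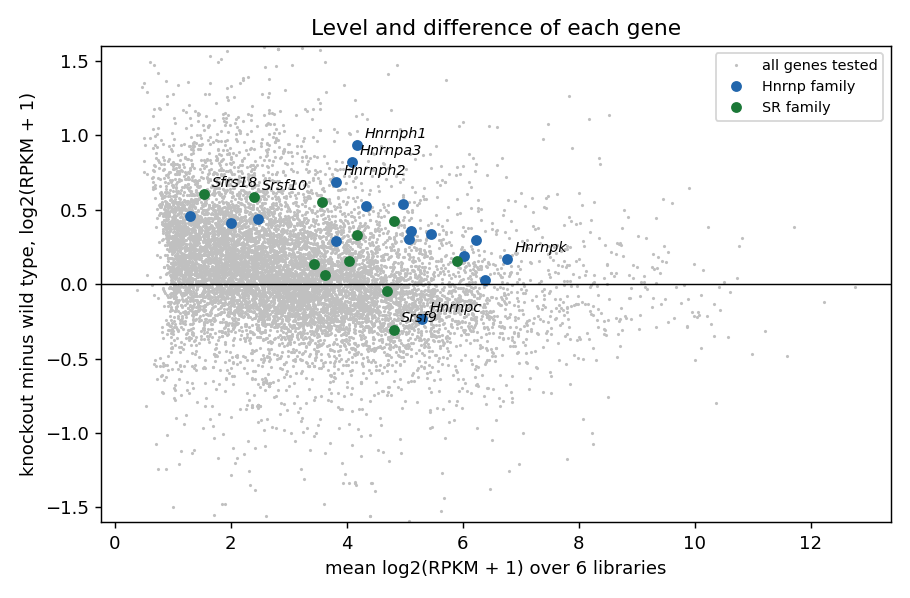
Mean log2(RPKM + 1) over 6 libraries and difference of knockout from wild type for all genes tested (grey), Hnrnp genes (blue) and SR genes (green), with 57 genes beyond the limit of 1.6 of the vertical axis not drawn. Most members lie above 0, with Hnrnph1 at 0.93 the highest and Srsf9 at -0.31 the lowest.

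Between heterozygous and wild-type cells every member that passed the test was higher in heterozygous cells. Of 17 Hnrnp genes, 13 rose and none fell, and of 11 SR genes tested, 9 rose and none fell, where 35.5% of all genes tested were called higher and 17.1% lower in limma. The median difference was 0.14 for the Hnrnp genes and 0.23 for the SR genes, against 0.07 for all genes. The members that did not pass were Hnrnpk, Hnrnpc, Hnrnpf, Hnrnph3, Srsf7 and Srsf9. No member tested reached 2-fold without overlap, which 1.2% of all genes tested did. The largest Hnrnp differences were those of Hnrnpd with 0.38 ± 0.04, Hnrnpa0 with 0.31 ± 0.03 and Hnrnpa2b1 with 0.29 ± 0.03, and the largest SR differences those of Srsf10 with 0.38 ± 0.05, Srsf1 with 0.30 ± 0.03 and Sfrs18 with 0.26 ± 0.05. Hnrnph1 and Hnrnpa3, which led in knockout, were at 0.27 ± 0.03 and 0.19 ± 0.03 here. Each of the 6 libraries, when left out, cost between 2 and 5 of the calls of Hnrnph2, Hnrnpm, Hnrnpul1, Hnrnpul2, Srsf4 and Srsf6, with adjusted p between 0.0545 and 0.215 in limma. The counts depended on scaling: after scaling to equal medians 7 Hnrnp genes were called higher and 1 lower, and 6 SR genes higher and 1 lower. Over all genes that scaling gave 2371 higher and 2839 lower in place of 3865 and 1864, and in knockout against wild type 3479 higher and 3891 lower in place of 4421 and 2903.

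Between knockout and heterozygous cells most Hnrnp genes were higher in knockout, while SR genes were divided. Of 17 Hnrnp genes, 12 rose in knockout and 2 (Hnrnpc and Hnrnpl) fell, and of 11 SR genes tested, 4 (Srsf5, Srsf10, Srsf11 and Sfrs18) rose and 3 (Srsf1, Srsf6 and Srsf9) fell. Over all genes 26.4% were called higher and 25.4% lower in limma, so the SR counts lay near the background in both directions. The median difference was 0.20 for Hnrnp genes, 0.05 for SR genes and -0.00 for all genes. Hnrnph1, Hnrnpa3 and Hnrnph2 led with 0.67 ± 0.03, 0.63 ± 0.03 and 0.54 ± 0.05 (limma, adjusted p = 9.95e-06, 9.9e-06 and 0.000117). Hnrnpa0, Hnrnpab and Hnrnpd, all higher than wild type in both other genotypes, did not pass the test here, with differences of -0.0049 ± 0.03, 0.01 ± 0.03 and 0.06 ± 0.04. Of the SR genes Sfrs18 and Srsf11 differed most, by 0.34 ± 0.05 and 0.31 ± 0.04, and Srsf9 by -0.21 ± 0.05 (limma, adjusted p = 0.00104, 0.00102 and 0.0107). The call of Srsf9 was lost without the first heterozygous library (limma, adjusted p = 0.0586). Those of Hnrnpl, Srsf1 and Srsf6 were lost without the first knockout library, that of Srsf10 without the second, and those of Hnrnpr and Hnrnpul2 without either, and the first or second heterozygous library likewise cost 3 or 5 calls, with adjusted p between 0.0503 and 0.172 in limma over all these cases. No member tested reached 2-fold without overlap, which 0.743% of all genes tested did. The 3 comparisons share libraries and are not independent of each other.

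Other genes of the splicing pathway were followed through lists of related factors. Of 24 tested hnRNP proteins under other symbols, 18 rose and 1 fell in knockout against wild type, with a median of 0.20. Hnrpdl, a relative of Hnrnpd, rose by 0.96 ± 0.06, Ewsr1 by 0.43 ± 0.03 and Ptbp3 by 0.62 ± 0.04. Of 23 SR-related splicing factors 20 rose and none fell, with a median of 0.35, and Bclaf1 (0.94 ± 0.04), Rbm39 (0.80 ± 0.05), the Sfrs18 partner Pnn (0.79 ± 0.04) and the splicing activator Tra2b (0.68 ± 0.04) had the smallest p. The kinases and import factors of SR proteins were mixed, with 7 of 13 higher and 3 lower: the kinases Clk1 (0.87 ± 0.05) and Prpf4b (0.80 ± 0.05) rose, the import receptor Tnpo1 rose by 0.38 ± 0.04 and its relative Tnpo2 fell by 0.29 on the log2 scale. The core spliceosome, whose list had 24 of 53 genes higher and 6 lower with a median of 0.08, had a share of higher calls near the 40.6% of all genes. Its members Snrpd3 (0.57 ± 0.03), Ddx46 (0.70 ± 0.04) and Prpf38b (0.63 ± 0.05) rose.

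Among 21 tissue-type splicing regulators 13 rose and 5 fell. Those that rose include the muscleblind genes Mbnl2 (0.82 ± 0.03) and Mbnl1 (0.72 ± 0.05), Rbm6 (0.75 ± 0.05) and Celf5 (0.68 ± 0.06). Celf5 passed the filter of 1 RPKM in 2 libraries only with its knockout values. Of 19 genes of nonsense-mediated decay, 8 rose and 3 fell with a median of 0.09, a share of higher calls near the 40.6% of all genes. Among those of smallest p, Smg1 (0.93 ± 0.05), Upf2 (0.75 ± 0.06) and Upf3b (0.80 ± 0.10) rose. Of these, Upf2 and Upf3b passed the filter only with their knockout values. Proliferation genes were higher in knockout as well: 19 of 19 tested rose against wild type, with a median of 0.49. In knockout against heterozygous their median was 0.31, where that of the Hnrnp genes was 0.20 and that of the SR genes 0.05. The 19 include Mki67, which passed the filter only with its knockout values, so its direction was set by the filter. The proliferation genes summed to 168 and 167 RPKM in knockout, 143 and 142 RPKM in heterozygous and 119 and 118 RPKM in wild-type libraries. Mki67, a marker of cycling cells, was at 1.43 and 1.40 RPKM in knockout, 0.439 and 0.462 RPKM in heterozygous and 0.210 and 0.208 RPKM in wild-type libraries, and Top2a, Ccna2 and Mcm6 rose by 1.10 ± 0.06, 0.84 ± 0.05 and 0.77 ± 0.05. Their part in the differences of the Hnrnp and SR genes was not tested.

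**Figure D5:**
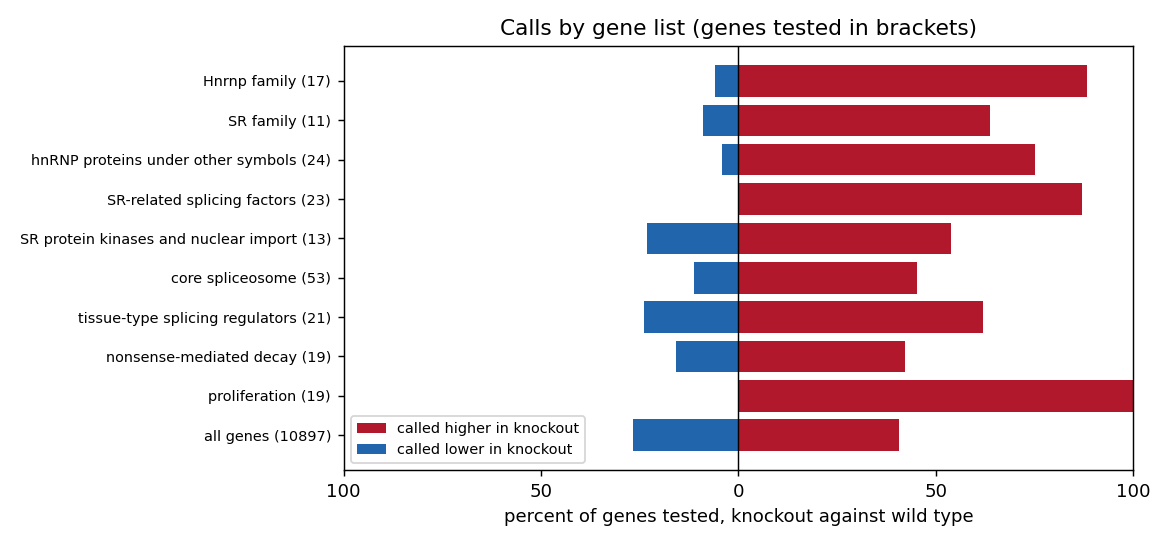
Percent of the genes tested that limma called higher (right, red) or lower (left, blue) in knockout against wild type, for both families, 7 lists of related genes and all genes (tested genes in brackets). The Hnrnp family has 88.2% called higher, the SR family 63.6% and all genes 40.6%.

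In heterozygous against wild type, where 35.5% of all genes were called higher and 17.1% lower, the lists gave 10 higher and 0 lower of 24 tested (hnRNP proteins under other symbols), 15 and 1 of 23 (SR-related factors), 7 and 3 of 13 (kinases and import), 17 and 4 of 53 (core spliceosome), 11 and 5 of 21 (tissue-type regulators), 9 and 4 of 19 (nonsense-mediated decay) and 11 and 0 of 19 (proliferation). The shares of higher calls of the core spliceosome and of the hnRNP proteins under other symbols thus lay near that of all genes. In knockout against heterozygous, where 26.4% were called higher and 25.4% lower, the counts were 12 and 2, 16 and 0, 4 and 1, 19 and 11, 6 and 5, 6 and 3 and 16 and 0 in the same order of lists. There the kinases, the tissue-type regulators and the genes of nonsense-mediated decay had shares of higher calls near that of all genes. The list of SR-related factors was therefore called higher more broadly than the SR genes themselves in knockout against heterozygous, 16 of 23 against 4 of 11, a difference that was not tested.

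Some members share sequence or position with other genes. Several Hnrnp genes, Hnrnpa3 among them, have processed copies elsewhere in the genome, and no label or header says how reads with several equal positions were assigned, so their levels are uncertain to that extent. By the RefSeq annotation 6 members overlap the span of another gene with a row in the table, such as Gatc for Srsf9, Cox20 for Hnrnpu, Mfsd11 for Srsf2 and Rufy2 for Hnrnph3. The labels do not say if reads were counted by strand. Gatc had 5.40 and 5.72 RPKM in knockout, 5.08 and 5.30 RPKM in heterozygous and 4.62 and 4.89 RPKM in wild-type libraries, the opposite order to that of Srsf9. Rufy2 had 1.62 and 1.57 RPKM in knockout, 1.30 and 1.30 RPKM in heterozygous and 0.992 and 1.10 RPKM in wild-type libraries, about the level and order of Hnrnph3.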

How the data were processed

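Polyadenylated RNA was made into libraries by a dUTP protocol, per the labels' protocols, and the submitters' processing notes name the aligner TopHat and the build mm9. The deposited table holds a row per gene symbol and a column per library and names no unit. The deposited values were identified as RPKM: multiplied by gene length plus 1, values of short RNA genes were whole multiples of 1 step per library for 97.4% to 98.9% of rows (tolerance 1e-06 steps). Taking that step as 1 aligned base gave the depths, with 37 aligned bases counted as 1 read equivalent. Replicate libraries differed by 1.15 to 1.21 times counting variance by a robust estimate and by 1.55 to 2.29 times by the mean over all genes, held no set of identical values and were kept as 2 each. Nothing in the labels says that they are separate animals or cultures, so p-values cover only the spread among these libraries, possibly a technical one.

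Genes of at least 1 RPKM in 2 of 6 libraries were fitted as log2(RPKM + 1) with limma 3.58.1 in R 4.3.3 (3 group means with 3 residual degrees of freedom, trended prior, two-sided, Benjamini-Hochberg over 10897 genes, threshold 0.05). The fit was also run on simulated data, whose outcome is not given here. The members and lists were chosen with earlier results of these data known. Every member is named; full values are given for the 5 largest called differences per family in knockout against wild type and the 3 largest in the other comparisons, and up to 4 genes of smallest p per list, some of which are not reported here. Hnrnpc, Hnrnph3, Hnrnpk, Hnrnpl, Srsf2, Srsf4, Srsf6, Gatc and Rufy2 are given in full outside that rule, chosen after their values were seen. Replicate numbers were not taken as pairs: deviations of same-numbered libraries correlated at 0.06, -0.06 and -0.09. Alternatives were other pseudocounts, filters and scalings, a replicate block, 2-genotype fits and leaving out each library. Promoter windows come from RefSeq, GRCm38.p6.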

Additional observations from a re-analysis of the deposited data

How the results depend on the processing

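Calls of members were most stable between knockout and wild type: 23 of 24 held under all 14 alternatives that could be fitted, the exception being Srsf1. Of 22 calls in heterozygous against wild type 12 held, and of 21 in knockout against heterozygous 14. Srsf4 and Srsf6 in heterozygous against wild type lost their calls under 10 alternatives and Hnrnpm under 8. With the replicate block 81 of 84 values kept their call, and the calls higher in heterozygous against wild type were 13 Hnrnp and 7 SR genes.

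Median scaling gave 2 of 11 SR genes lower in knockout against wild type, where 3891 of all 10897 genes were lower. In heterozygous against wild type it gave 7 Hnrnp genes higher with 1 lower and 1 SR gene lower, where all genes had 2371 higher and 2839 lower. It gave family medians of 0.28 (Hnrnp) and 0.079 (SR) in knockout and 0.068 and 0.16 in heterozygous cells against wild type, ratios of summed RPKM to wild type of 1.14 and 1.06 in knockout and 1.04 and 1.04 in heterozygous cells. Quantile normalization gave medians of 0.24 (SR, knockout against wild type), 0.15 (SR, heterozygous against wild type) and 0.26 and 0.093 (Hnrnp and SR, knockout against heterozygous). It gave 1 Hnrnp gene lower in knockout against heterozygous, where 2860 of all genes were lower. In heterozygous against wild type it gave 2397 of all genes higher. A filter at 5 RPKM, which left 6788 genes to test, gave 2291, 2280 and 1611 genes higher in the 3 comparisons. With it 2463, 1561 and 2322 genes were lower. The share of calls that were higher was 48.2%, 59.4% and 41.0%, in place of 60.4%, 67.5% and 51.0%. The same filter gave an SR median of 0.19 in heterozygous against wild type, as did no filter. A pseudocount of 5 gave Hnrnp medians of 0.27, 0.12 and 0.15 in the 3 comparisons and an SR median of 0.11 in heterozygous against wild type. Without the highest member, summed ratios were 1.23 (Hnrnp, knockout against wild type), 1.13 and 1.11 (Hnrnp and SR, heterozygous against wild type) and 1.09 and 1.01 (knockout against heterozygous), and the SR over Hnrnp ratio changed by factors of 0.912 and 0.987 against wild type.

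Leaving out single libraries, which for summed ratios was chosen after seeing the data and kept them within the spread, gave Hnrnp medians of 0.33 to 0.39 in knockout and 0.14 to 0.17 in heterozygous cells against wild type, SR medians of 0.16 to 0.20 in knockout against wild type and 0.039 to 0.088 in knockout against heterozygous, and, as genes lower, 0 to 1 SR gene in heterozygous against wild type and 1 to 2 Hnrnp and 1 to 3 SR genes in knockout against heterozygous, where 1902 to 2917 of all genes were higher, the lowest without the second knockout library.

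Reversed signs arose only in values without a call: with median scaling Hnrnpc (-0.058), Hnrnpf (-0.015), Hnrnph3 (-0.00051) and Srsf7 (-0.052) in heterozygous and Hnrnpl (-0.050) and Srsf7 (-0.015) in knockout against wild type; with quantile normalization Hnrnph3 (-0.042), Hnrnpk (0.023) and Srsf7 (-0.030) in heterozygous and Srsf6 (0.013) in knockout against wild type and Hnrnpa0 (0.041) in knockout against heterozygous; and without single libraries Hnrnpc (-0.0099 to 0.045) and Hnrnph3 (-0.053 to 0.20) in heterozygous against wild type, Hnrnpl (-0.0016 to 0.060) in knockout against wild type, and Hnrnpa0 (-0.025 to 0.015), Srsf4 (-0.057 to 0.013) and Srsf7 (-0.0084 to 0.091) in knockout against heterozygous. For these settings the cause was not tested. At depths of 27.9M to 48.1M read equivalents Srsf12 was too low for a test, and 2 libraries per genotype limit every error.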
